A study of Homo sapiens with 8 samples.

Results

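The sites described here are the places in the genome where a BRG1 peak was called in control HCT-116 cells and also in both libraries of cells labelled as SETD3 knockouts (KO). HCT-116 is a human colorectal carcinoma line. BRG1, the product of SMARCA4, is the ATPase that drives SWI/SNF chromatin remodelling complexes, and SETD3 is the enzyme that methylates actin on a histidine. BRG1 was mapped by CUT&RUN, in which an antibody brings a nuclease to its target and the DNA cut free around it is sequenced, in 1 library of SETD3 control cells (genotype label CT) and 2 libraries of SETD3 KO cells, KO1 and KO2. The series also held 3 libraries for Flag-tagged wild type actin in control, KO1 and KO2 cells, and 2 IgG libraries of control cells, 1 per antibody arm, the one of the Flag arm also carrying the word Empty in its title. No library was repeated. The labels leave unstated whether the KO libraries came from different clones or cultures, so the spread between KO1 and KO2 may be technical.

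Peaks that overlapped a peak of either IgG list by 1 bp or more were removed, which left 33596 control, 6789 KO1 and 12782 KO2 peaks on chromosomes 1 to 22 and X. Overlapping peaks of the 3 lists were joined into 45259 regions, and 1306 of these (2.89%) held a peak from every list. They made up 3.9% of the 33512 regions with a control peak. Another 1082 regions were held by control and KO1, 3209 by control and KO2, 27915 by the control only and 498 by both KO lists without the control. The count rests on each KO library. It was 4516 when only KO2 was required beside the control and 2382 when only KO1 was required. The sites were chosen by the presence of a called peak in the 3 BRG1 lists, a measured value, so their ranks and widths are given below as a description with no test.

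SWI/SNF complexes use the energy of ATP to slide or evict nucleosomes, and so keep enhancers and promoters open to transcription factors. In epithelial cells they are found at many enhancers, which lie inside genes or between them, often far from any transcription start. CCAAT boxes are short promoter elements, bound by the trimeric factor NF-Y, that lie upstream of many transcription starts.

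Promoters were the part of the shared set for which sequence could be printed, and CCAAT was the element whose share there differed most, in percentage points, from all promoters among those searched. Of 1177 shared sites on chromosomes with promoter windows in the RefSeq table (GRCh38.p14, the same build as hg38), 124 overlapped such a window and 48 covered a whole one. A window runs from 250 bases before to 50 bases after a start listed for a protein-coding gene. That start is not always an end of the annotated gene, since the LIMA1 site lies 26203 bp from the nearest gene end. The following 6 promoters were taken from the 10 shared sites that overlapped a window by the most bases and, among these, ranked highest. Of the 10, 3 held no CCAAT box in these bases (LIMA1, CASP9 and STN1), and the 6 were picked to show different numbers of boxes. They show a promoter with 4 CCAAT boxes (DCBLD2, a transmembrane receptor), one with 3 (TMEM53), one with 2 (DRC10, which shares its promoter region with TPCN1), 2 with 1 (MYH9, the heavy chain of non-muscle myosin II, and NME1, a nucleoside diphosphate kinase) and one with none (CASP9, the initiator caspase of the mitochondrial pathway). Each is the 250 bases before the start, written 5′ to 3′ on the strand of the gene, and capitals mark CCAAT or its reverse complement ATTGG. The boxes named here are those in these bases. The whole window, with 50 bases after the start, holds 4 at TMEM53 and 3 at DRC10, and the same number at the others.
DCBLD2: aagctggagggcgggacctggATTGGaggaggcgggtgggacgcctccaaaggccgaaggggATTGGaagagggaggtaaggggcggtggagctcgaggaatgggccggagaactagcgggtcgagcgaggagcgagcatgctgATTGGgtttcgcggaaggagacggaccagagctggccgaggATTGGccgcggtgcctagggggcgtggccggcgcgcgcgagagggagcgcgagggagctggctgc
TMEM53: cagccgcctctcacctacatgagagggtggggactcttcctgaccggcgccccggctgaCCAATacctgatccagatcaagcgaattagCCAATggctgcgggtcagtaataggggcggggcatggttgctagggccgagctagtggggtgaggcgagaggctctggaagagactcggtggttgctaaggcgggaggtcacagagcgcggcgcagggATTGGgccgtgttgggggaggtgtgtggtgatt
DRC10: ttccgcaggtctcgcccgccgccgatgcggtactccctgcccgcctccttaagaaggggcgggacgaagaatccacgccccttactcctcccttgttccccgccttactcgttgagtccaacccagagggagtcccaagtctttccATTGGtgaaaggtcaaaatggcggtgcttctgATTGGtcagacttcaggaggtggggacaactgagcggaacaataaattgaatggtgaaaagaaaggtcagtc
MYH9: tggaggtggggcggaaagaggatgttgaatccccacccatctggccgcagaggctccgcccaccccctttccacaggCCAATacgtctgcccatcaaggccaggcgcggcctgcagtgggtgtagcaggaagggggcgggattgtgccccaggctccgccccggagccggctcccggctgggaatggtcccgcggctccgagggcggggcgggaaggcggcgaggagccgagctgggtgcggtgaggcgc
NME1: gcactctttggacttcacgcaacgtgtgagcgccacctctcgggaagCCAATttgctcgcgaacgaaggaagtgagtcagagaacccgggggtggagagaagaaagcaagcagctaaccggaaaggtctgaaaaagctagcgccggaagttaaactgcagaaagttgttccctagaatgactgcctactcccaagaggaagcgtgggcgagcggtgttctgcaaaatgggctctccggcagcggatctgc
CASP9: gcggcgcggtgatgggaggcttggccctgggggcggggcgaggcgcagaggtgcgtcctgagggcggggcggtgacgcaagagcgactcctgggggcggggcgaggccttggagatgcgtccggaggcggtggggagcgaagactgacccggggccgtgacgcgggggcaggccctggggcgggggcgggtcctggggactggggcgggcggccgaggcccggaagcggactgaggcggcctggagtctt
The DCBLD2 promoter is chr3:98901696-98901945 on the minus strand, that of TMEM53 is chr1:44674482-44674731 on the minus strand, and that of DRC10 is chr12:113221095-113221344 on the minus strand. The MYH9 promoter is chr22:36387968-36388217 on the minus strand, that of NME1 is chr17:51153309-51153558 on the plus strand, and that of CASP9 is chr1:15524216-15524465 on the minus strand.

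Ranks are given as the percentile of the total signal (the summed signal over a peak) within all peaks of the same library on chromosomes 1 to 22 and X, where 100 is the strongest peak. IgG-overlapping peaks, which hold many of the upper ranks, made up 36.7% of the control, 71.3% of the KO1 and 59.9% of the KO2 peaks. Percentiles on this scale are therefore not directly comparable between libraries. The DCBLD2 peak stood at 87.4 in the control library, 39.6 in KO1 and 74.5 in KO2, with widths of 500, 230 and 440 bp. The MYH9 peak stood at 88.9, 57.8 and 41.0, with widths of 800, 230 and 160 bp. The control peak was thus the widest at both, and the order of KO1 and KO2 differed between them. At NME1 the percentiles were 59.2, 52.4 and 67.3 and the widths 280, 360 and 330 bp, so that control did not lead there. Among peaks without IgG overlap DCBLD2 stood at 99.37, 81.8 and 99.36, MYH9 at 99.7, 96.2 and 73.3 and NME1 at 76.8, 93.5 and 97.2.

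Of the 15812 promoter windows in the table, 141 (0.892%) overlapped a shared site, and 94 of these 141 held CCAAT on either strand (66.7%, 95% exact binomial interval 58.2 to 74.4), against 36% of all windows. The share was 61.3% of 150 windows at regions of control and KO1 (53.0 to 69.2), 52.3% of 733 at regions of control and KO2 (48.6 to 55.9) and 40.4% of 2489 at control-only regions (38.5 to 42.4). A pair or more of CCAAT boxes stood in 43.3% of the windows at shared sites (35.0 to 51.9), in 16.6% at control-only regions (15.2 to 18.2) and in 12.1% of all windows. Control-only regions were weaker, so the same was counted among the top decile of control regions by total signal. There CCAAT was in 59 of 90 windows at shared sites (65.6%, 54.8 to 75.3), 31 of 46 at regions of control and KO1 (67.4%, 52.0 to 80.5), 161 of 257 at regions of control and KO2 (62.6%, 56.4 to 68.6) and 157 of 315 at control-only regions (49.8%, 44.2 to 55.5). Among strong regions, the intervals of the 3 classes with a KO peak overlap, and the share at control-only regions is the lowest. The control-only interval also overlaps those of shared sites and of control and KO1, though not that of control and KO2. For a pair or more, these shares were 45.6% (35.0 to 56.4), 23.9% (12.6 to 38.8), 31.1% (25.5 to 37.2) and 25.4% (20.7 to 30.6). Of 78 windows at peaks of the BRG1-arm IgG list, 44.9% held CCAAT (33.6 to 56.6) and 23.1% a pair or more (14.3 to 34.0). Both shares are above those of all control-only regions. For the 82 windows of the Flag-arm IgG list they were 28.0% (18.7 to 39.1) and 7.32% (2.73 to 15.2). Regions of both KO lists without the control held CCAAT in 9 of 17 windows (52.9%, 27.8 to 77.0).

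**Figure D1:**
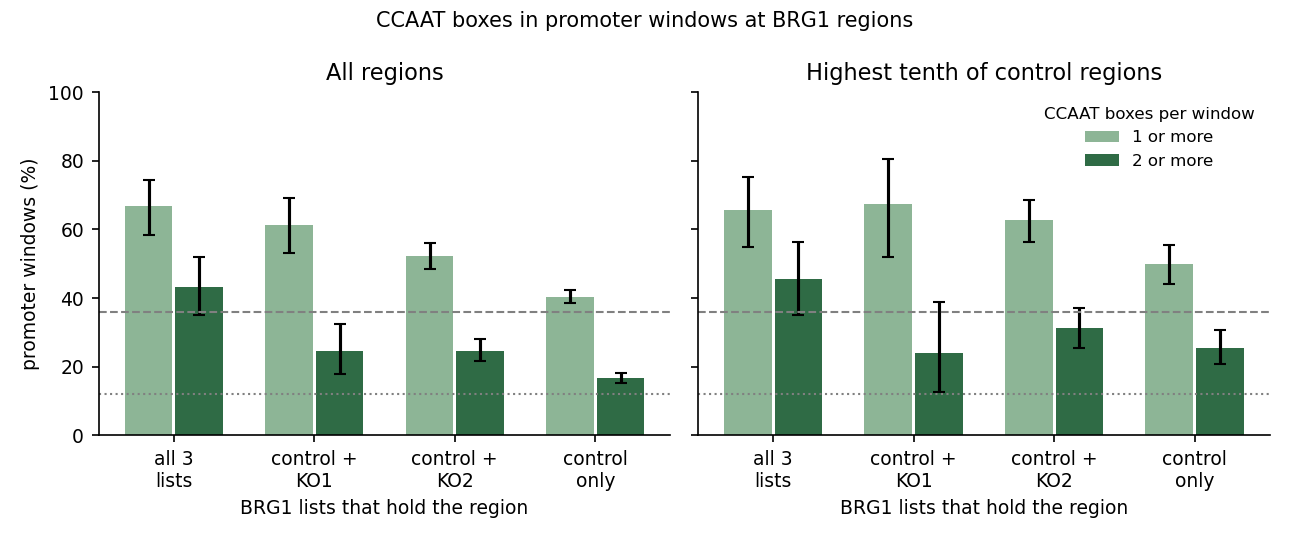
Percent of promoter windows (vertical axis) with 1 or more and with 2 or more CCAAT boxes on either strand, by the BRG1 lists that hold the overlapping region, for all regions and for the top decile of control regions by total signal. Error bars are 95% exact binomial intervals, the dashed and dotted lines mark 1 or more and 2 or more boxes over all 15812 windows, and the shared sites reach 66.7% against 40.4% at control-only regions.

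The intervals cover counting error only, regions are not replicates, and windows of neighbouring genes can overlap and so share letters. With 1 window per region the share was 65.3% of 124 regions against 40.1% of 2366 control-only regions. CCAAT was singled out after the values of all 13 motifs and of all 2080 words of 6 bases had been seen. The 8 words whose share differed most between the windows of shared sites and of control-only regions overlap CCAAT or ATTGG by at least 4 bases, led by CCAATC with 44.0% against 21.7%. Other motifs differed less in percentage points, while TATAAA, the TATA box, differed more as a ratio. It stood in 2 of the 141 windows (1.42%, 0.172 to 5.03), against 4.78% at control-only regions and 9.92% of all windows. TGANTCA, the AP-1 element, stood in 4.26% (1.58 to 9.03) against 4.38% and 5.97%, and GGGCGG, the GC box, in 80.9% against 76.3% and 57.3%. CTTTGA, a core of the TCF/LEF element, stood in 8.51% against 7.39% and 10.97%, and GGAATG, the TEAD element, in 13.5% against 9.36% and 11.9%. CCGGAAG, the ETS element, stood in 18.4% against 22.5% and 13.97%. GCGCATGC, part of the NRF1 element, stood in 7.09% against 5.75% and 4.14%, and AAGATGGC, part of the YY1 element, in 6.38% against 6.27% and 3.83%. CCACNAGG, part of the CTCF element, stood in 4.26% against 4.30% and 5.05%, and TGACGTCA, the CREB element, in 2.13% against 3.13% and 2.53%. The CArG box, bound by SRF, stood in 1.42% against 1.29% and 1.25%, and CAAAGTCCA, the HNF4 element, in 0 of the 141 windows (up to 2.58%) against 0.121% and 0.329%. Motifs were searched on both strands and counted separately, so matches of different motifs may overlap. Mean GC content was 65.2% at shared sites, 65.4% at control-only regions and 61.1% over all windows.

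Most shared sites lay away from promoters. Of the 1306, 643 (49.2%) lay inside a protein-coding gene more than 1 kb from its ends, 459 (35.1%) lay outside genes and 204 (15.6%, 13.7 to 17.7) lay within 1 kb of a gene end, which is either the start or the finish of the annotated gene. Over all 45259 regions 18.3% lay at a gene end. The median distance to the nearest gene end was 25244 bp at shared sites and 17317 bp at control-only regions, and 67.4% of shared sites were more than 10 kb away (64.8 to 69.9) against 59.1% (58.6 to 59.7). It was 17806 bp at regions of control and KO1 and 9264 bp at those of control and KO2. Such distance was not particular to shared sites. Regions of both KO lists without the control, of KO1 only and of KO2 only had medians of 46638, 33886 and 25264 bp. Of these, 8.63%, 8.53% and 13.4% lay at a gene end. The gene table gives no exons, so exonic and intronic sites were not told apart.

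The difference in position was larger among strong sites. In the top decile of control regions, 116 of 803 shared sites lay at a gene end (14.4%, 12.1 to 17.1), against 422 of 1277 control-only regions (33.0%, 30.5 to 35.7). Regions of control and KO1 stood at 23.8% and those of control and KO2 at 35.7%. Requiring KO1 therefore went with fewer gene ends than requiring KO2, and without KO1 the share among shared sites was 27.7% rather than 15.6%. Of strong shared sites 69.2% lay more than 10 kb from a gene end (65.9 to 72.4), against 50.1% of strong control-only regions (47.3 to 52.9).

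**Figure D2:**
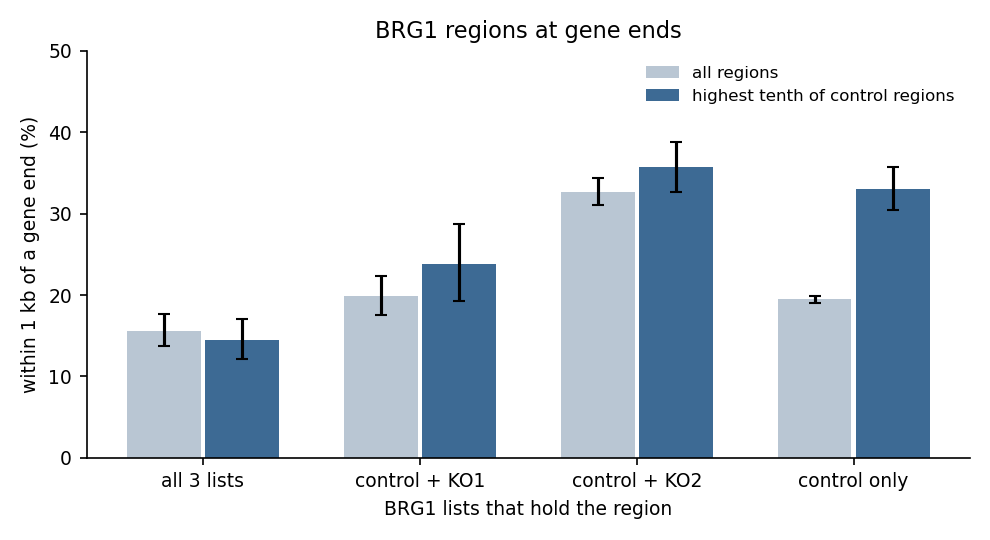
Percent of BRG1 regions within 1 kb of a gene end (vertical axis), by the lists that hold the region, for all regions and for the top decile of control regions by total signal, with 95% exact binomial intervals. Strong shared sites stand at 14.4%, strong control-only regions at 33.0%.

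By total signal the shared sites stood high in the control list. Their median percentile was 78.3 (quartiles 63.7 and 85.0) in the control, 36.7 (19.99 and 50.1) in KO1 and 50.7 (31.3 and 63.2) in KO2, which gives 43.7 ± 9.91 over the KO libraries (SD, n = 2). IgG-overlapping peaks hold many of the upper ranks. Among peaks without IgG overlap alone, the medians were 93.8, 77.8 and 85.1, and 803 sites (61.5%) were in the top decile of the control, 391 (29.9%) of KO1, 518 (39.7%) of KO2 and 192 (14.7%) of all 3. By maximum signal among all peaks the medians were 55.6, 18.3 and 25.7, against 34.5, 11.4 and 21.8 for all peaks without IgG overlap. The share of control regions that were shared rose with control signal, from 0.656% of the lowest decile (0.412 to 0.992) through 5.91% of the ninth to 24.0% of the highest decile (22.5 to 25.4). The median control width rose with it, from 150 bp through 320 to 470 bp. Total signal is summed over the width and 1 bp of overlap was enough, so signal and width were not told apart here.

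**Figure D3:**
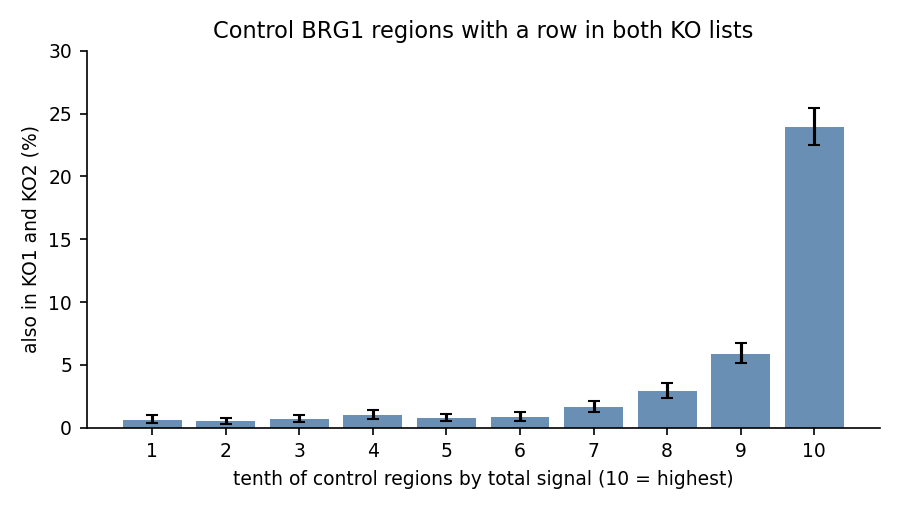
Percent of control BRG1 regions that also held a KO1 and a KO2 peak (vertical axis), by decile of total signal in the control (horizontal axis, 10 the highest), with 95% exact binomial intervals. The share is 5.91% in the ninth decile and 24.0% in the highest, where the median control widths are 320 and 470 bp.

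Median width was 380 bp in the control library (range 20 to 2040), 170 bp in KO1 (20 to 550) and 200 bp in KO2 (20 to 740), or 185 ± 21.2 bp over the KO libraries (SD, n = 2). All peaks without IgG overlap had medians of 210, 90 and 110 bp, so the sites were wider than the usual peak of each list. The control peak was wider than the KO1 peak at 1157 sites (88.6%), where 86.3% of all regions of control and KO1 showed this. It was wider than the KO2 peak at 1105 sites (84.6%), against 81.8% of all regions of control and KO2. The control percentile was above that of KO1 at 1208 sites (92.5%, against 89.9% of all such regions) and above that of KO2 at 1145 (87.7%, against 82.8%). Ranked among peaks without IgG overlap, the control was above KO1 at 950 sites (72.7%, against 70% of all such regions) and above KO2 at 863 (66.1%, against 65.6%). The regions held by each pair of lists, 2388 for control and KO1 and 4515 for control and KO2, include the 1306 shared sites. The nearness of these shares is therefore partly built in, and the regions outside the shared set were not counted apart.

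**Figure D4:**
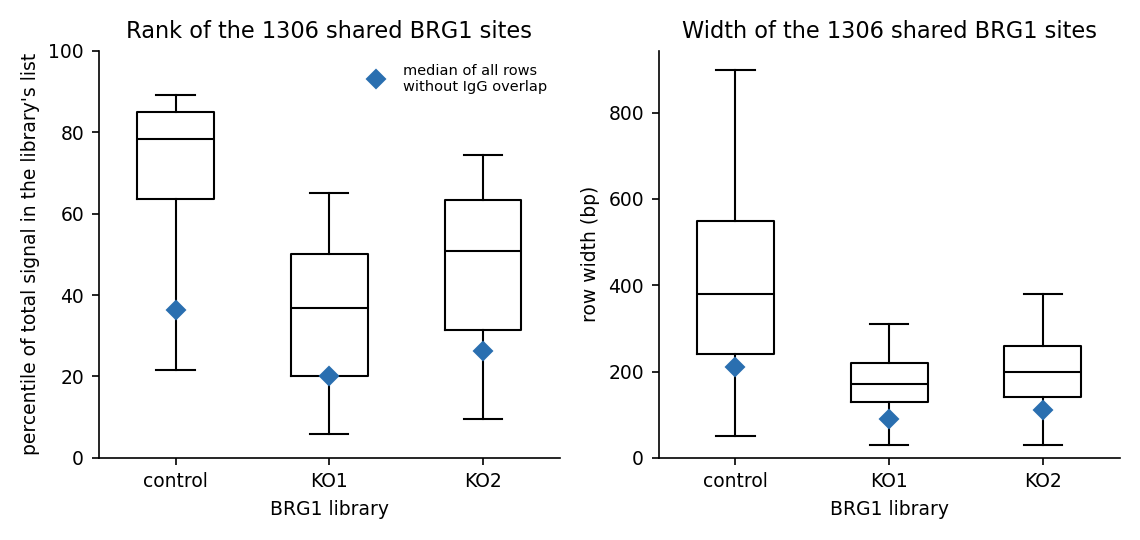
Percentile of total signal within the library's list (left) and peak width in bp (right) of the 1306 shared BRG1 sites in control, KO1 and KO2. Boxes give quartiles and median, whiskers the 5th and 95th percentiles, and diamonds the median of all peaks without IgG overlap; the medians of shared sites are 78.3, 36.7 and 50.7, and 380, 170 and 200 bp.

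Whether peak height differed between the libraries depended on the scale. The median maximum signal was 87.7 in the control library, 115 in KO1 and 99.996 in KO2 in the deposited units, and the median ratio to the control at the same site was 1.32 in KO1 and 1.19 in KO2. The ratio of total signal was 0.757 and 0.759 in the same units. At 10727 sites held by all 3 BRG1 lists and both IgG lists, the maximum ratios were 1.17 and 1.14, the total ratios 1.14 and 1.12, and the median widths 50, 30 and 30 bp. Maximum signal came in whole steps of 4.38 in the control library, 11.5 in KO1 and 9.09 in KO2, so that the median height was 20 steps in the control library, 10 in KO1 and 11 in KO2. The part of these coarser steps, and of the thresholds that set the lowest total signal at 4164, 6228 and 5182, in the narrower KO peaks was not tested, and with 1 control library they cannot be told apart from the knockout.

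The distance between summits within a shared site is bounded by the rule, since its peaks had to overlap. It is given as a description, with no baseline. The centre of the maximum was a median of 45 bp from that of the control in KO1 and 50 bp in KO2, and 45 bp apart between the KO libraries. It was within 50 bp at 711 sites (54.4%), 679 (52.0%) and 712 (54.5%), and the largest distances were 1740, 870 and 1645 bp. At 1234 sites (94.5%) at least 1 base was common to all 3 libraries. The median shortest overlap was 150 bp, and it was 10 bp or less at 3 sites, among them sites in PPARG and CTNND1. On the other side of the threshold, 2 regions held by the control and 1 KO list missed a peak of the other by at most 10 bp, at CTBP2 and near MRGPRX2, and 177 missed by at most 100 bp.

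A subset of 66 sites (5.05%) was at most 50 bp wide in all 3 libraries, and 43 of these had identical ends in all 3. Only 1 lay at a gene end, and their median percentiles were 24.5, 32.3 and 39.0, so that they ranked lower in the control than in the KO lists. Of these narrow sites 14 (21.2%) overlapped a Flag-actin peak, against 81 of the other 1240 (6.53%). A further measure of background, a site within 1 kb of an IgG peak, was met by 44 shared sites (3.37%) and 3.16% of control-only regions.

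The site of highest mean rank lay in TCF7L2, which encodes the Wnt pathway transcription factor TCF4. It is chr10:113087141-113087880, inside the gene and 79798 bp from its nearer end. Its total signal was 91165 in the control library, 47285 in KO1 and 42817 in KO2, which are the percentiles 93.7, 77.4 and 82.3, with widths of 740, 320 and 550 bp. Next came ABCC3, an efflux transporter of organic anions (chr17:50638851-50639760), with percentiles of 92.5, 73.0 and 76.0 and widths of 910, 350 and 220 bp. A site outside genes on chromosome 8, 225738 bp from the pseudokinase gene TRIB1 (chr8:125664141-125665170), followed with 90.7, 68.8 and 81.7. Among peaks without IgG overlap, the TCF7L2 site was the strongest of the control and KO2 lists, ABCC3 stood at 99.99, 99.9 and 99.7 and the site near TRIB1 at 99.95, 99.5 and 99.99, so that the order of the libraries was not the same at all 3.

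A TCF7L2 site (chr10:113073701-113074230) had the order of the KO libraries turned, with 89.6 in the control library, 78.6 in KO1 and 70.6 in KO2. NSMCE2, a SUMO ligase of the SMC5/6 complex (chr8:125218991-125220350), stood at 91.9, 74.1 and 71.9, with a control peak of 1360 bp against 370 and 260 bp. The other sites among the 12 of highest mean rank lay in SLC45A4, in SLC38A8, an amino acid transporter, in RTN4, which shapes the endoplasmic reticulum, in ABTB2 and in WWTR1, which encodes the YAP partner TAZ, and outside genes nearest to SCG2 and TES. None of the 12 lay within 1 kb of a gene end, 9 lay inside a gene, and 1 overlapped a Flag-actin peak. IgG-overlapping peaks fill the upper ranks of the KO lists, so that no shared site stood above 78.6 in KO1 or 82.3 in KO2 on the scale of all peaks, and the control was the highest at all 12. Among peaks without IgG overlap the 12 sites stood at 99.3 or above in the control, 98.8 or above in KO1 and 98.4 or above in KO2, and the control was the highest at 5. RTN4 then stood at 99.3, 99.5 and 99.9, and SLC45A4 at 99.9, 98.8 and 99.98.

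**Figure D5:**
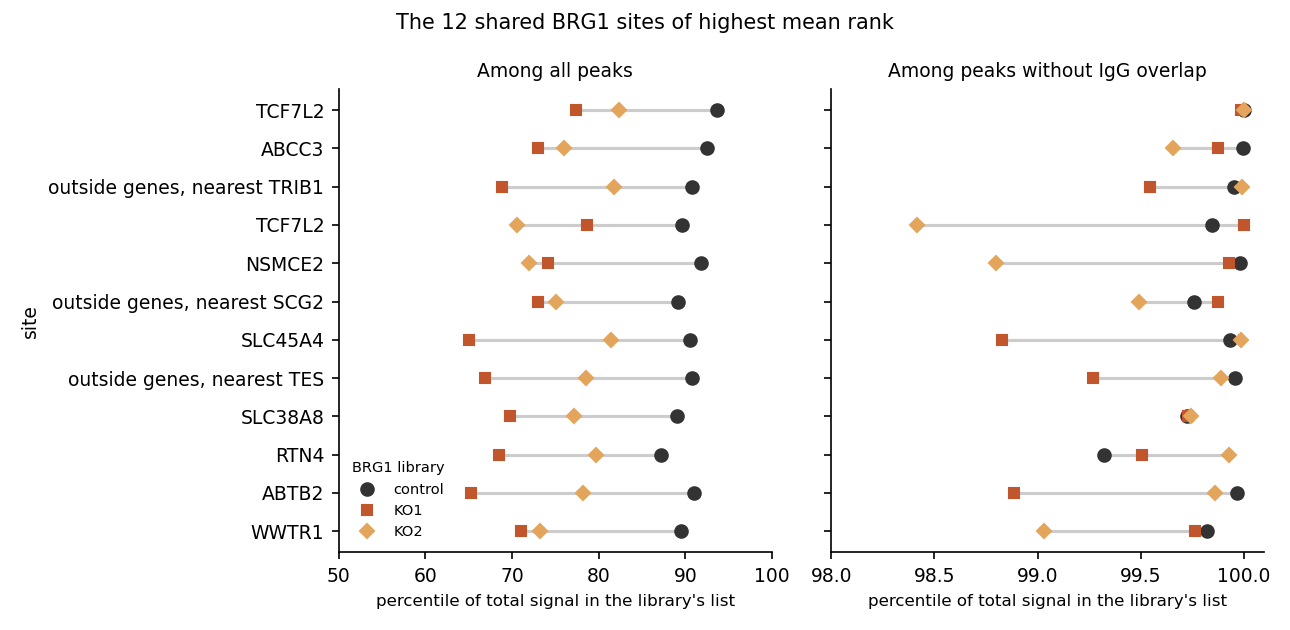
Percentile of total signal (horizontal axes) among all peaks of a library (left) and among its peaks without IgG overlap (right) in control, KO1 and KO2 for the 12 shared BRG1 sites of highest mean percentile (vertical axis), named by the gene they lie in or, outside genes, the nearest one. On the left the control points lie between 87.2 and 93.7 and no KO point can pass the ranks held by IgG-overlapping peaks, and on the right, where the axis starts at 98, the control is the highest at 5 of 12 sites.

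At the far end of the control side, HS1BP3 held a site (chr2:20579061-20579620) at 87.3 in the control library, 11.3 in KO1 and 9.52 in KO2, with widths of 560, 220 and 110 bp. AOPEP, an aminopeptidase, stood at 83.1, 17.0 and 0.860, and a site 10705 bp from PRKCH, a protein kinase C, at 81.0, 2.23 and 12.1. NF2, which encodes the tumour suppressor merlin, had a site at its gene end (chr22:29603191-29603720) at 85.4, 19.99 and 5.73. Among peaks without IgG overlap HS1BP3 stood at 99.3, 33.1 and 18.1, AOPEP at 97.1, 43.1 and 1.71 and NF2 at 98.5, 50.5 and 11.2, so that the KO peaks ranged from the lowest to the middle ranks.

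In the other direction, ASAP1, a GTPase-activating protein for ARF (chr8:130263751-130263830), had an 80 bp peak in each library at 8.41 in the control library, 62.1 in KO1 and 73.0 in KO2. CTH, which makes cysteine from cystathionine, had a gene-end site (chr1:70410711-70411300) at 8.41, 59.3 and 63.3, with widths of 230, 310 and 450 bp. The other 4 sites of largest difference toward the KO lists, near SCMH1, HNRNPD and TENT5C and in AKR1C3, had KO peaks of 30 to 110 bp. CTH was thus the one wide site among the 6.

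The control peaks were widest at SMAD3, the TGF-beta effector, where a site inside the gene (chr15:67148431-67150480) spanned 2040 bp in the control against 240 bp in KO1 and 210 bp in KO2. Its percentiles were 91.9, 11.3 and 37.8. A site 3206 bp from VMP1, a membrane protein of autophagy, spanned 1660, 160 and 180 bp at percentiles of 93.1, 49.1 and 62.6. Among peaks without IgG overlap the SMAD3 site stood at 99.99, 33.1 and 69.4 and the site near VMP1 at 99.997, 91.4 and 94.8. BHLHE40, a transcription factor of the circadian network, spanned 1540, 200 and 410 bp at its gene end, DLGAP1 1500, 340 and 390 bp, and S100A2 1440, 180 and 170 bp. At all 5 the KO peaks were the narrower ones.

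Genes with a shared site, either in the gene or within 1 kb of it, numbered 768 of 19974 protein-coding genes (3.84%), whereas 10143 (50.8%) had a control region. The former were long, with a median of 87663 bp against 42361 bp for genes with a control region and 24171 bp for all genes. Of the 768, 675 had 1 shared site and 32 had 3 or more. TCF7L2 held 7 among 36 control regions, with percentiles from 63.8 to 93.7 in the control, 9.29 to 78.6 in KO1 and 16.1 to 82.3 in KO2. NSMCE2 held 7 among 72, at 73.1 to 91.9, 26.2 to 74.1 and 2.33 to 72.3. CTBP2, a transcriptional corepressor, MACF1, a crosslinker of actin and microtubules, and VMP1 held 5 each, among 21, 19 and 27 control regions. SMAD3, DST, GRK5, PCDH7, VTI1A, SAP30BP and TEAD1 held 4 each, and the TEAD1 gene encodes a DNA-binding partner of YAP and TAZ.

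Shared sites also lay in groups along the chromosomes. They fell in 785 windows of 1 Mb, 513 of which held 1 site, and 31 windows with 5 or more held 194 sites. The fullest was chromosome 8 from 125 to 126 Mb, with 16 shared sites among 159 control regions, 7 in NSMCE2 and 9 nearest to TRIB1. From 127 to 128 Mb on the same chromosome 12 of 60 control regions were shared, nearest to MYC or POU5F1B. A window on chromosome 7 from 116 to 117 Mb, with TES, the caveolin genes CAV1 and CAV2, and MET, the receptor of hepatocyte growth factor, held 10 among 47. Chromosome 17 windows starting at 50, 59, 72 and 75 Mb held 8, 7, 7 and 7, among 85, 51, 78 and 94 control regions. On chromosome 10 the window from 119 to 120 Mb held 7 among 67. DNA copy number was not measured here, and the cause of the grouping was not tested. Over chromosome 8 as a whole 129 of 2128 control regions were shared (6.06%, 5.09 to 7.16) against 3.75% elsewhere (3.54 to 3.97), and in the top decile of control regions 32.8% (27.2 to 38.9) against 23.2% (21.7 to 24.7). Chromosome 8 regions were in that decile more often, at 12.3% against 9.85%.

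Of the 459 sites outside protein-coding genes, 125 were more than 100 kb from the nearest one, and 152 (33.1%, 28.8 to 37.6) overlapped an annotated long non-coding RNA gene, against 26.2% of control-only regions outside genes. LINC02964 held 6, PVT1 and LINC00673 held 4 each, MIR100HG, MSRB3-AS1 and SLC38A4-AS1 held 3 each, and CCAT1, a transcript upstream of MYC, held 2.

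Across 11 lists of genes of interest, 34 of 304 genes (11.2%) had a shared site, against 3.84% of all protein-coding genes. The lists differ in gene length and in how many genes had any control region, 231 of 304 (76.0%) in all. YAP and TEAD genes had shared sites at 7 of 22 (median gene length 71197 bp), namely WWTR1, PTPN14, LIMA1, TEAD1, ASAP1, CRIM1 and YAP1. PTPN14, a phosphatase that binds YAP, stood at 89.6, 59.5 and 73.6. TEAD1 stood at 78.4, 52.6 and 46.5 at its site of highest mean rank. Among peaks without IgG overlap PTPN14 stood at 99.8, 97.1 and 99.1 and TEAD1 at 93.9, 93.7 and 80.7.

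Actins and actin regulators had shared sites at 9 of 48 genes (median length 37604 bp), of which 40 had a control region. Among them were COTL1, CORO1C, MYH9, GSN, ACTN4, MYL9, RHOB and SRF, a transcription factor. COTL1, an actin-binding protein, stood at 83.6, 67.4 and 67.3 within 1 kb of its gene end, and GSN, which severs filaments, at 80.9, 47.7 and 57.2. ACTN4, an actin crosslinker, stood at 74.6, 45.1 and 61.9. Among peaks without IgG overlap COTL1 stood at 97.4, 99.3 and 97.2, GSN at 95.7, 90.2 and 91.2 and ACTN4 at 91.0, 87.7 and 94.4, so that the control was the highest at GSN alone of these 3.

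Epithelial junction and integrin genes had shared sites at 6 of 36, with ITGA6, an integrin subunit of laminin receptors, at 89.4, 64.6 and 75.5. TGF-beta genes had 3 of 20 (SMAD3, SMAD7 and TGFBR2), and TGFBR2, the type II receptor, stood at 88.4, 49.1 and 62.1. ERK and receptor tyrosine kinase genes had 3 of 22, with MET at 83.4, 53.0 and 74.6 and EGFR at 74.9, 52.6 and 60.8, and SPRED2. Wnt targets had 2 of 22, TCF7L2 and MYC, whose gene-end site (chr8:127742961-127743550) stood at 87.1, 57.8 and 77.3. Among peaks without IgG overlap ITGA6 stood at 99.8, 98.7 and 99.5, TGFBR2 at 99.6, 91.4 and 94.5 and MET at 97.3, 94.1 and 99.4. EGFR then stood at 91.2, 93.7 and 93.8 and MYC at 99.3, 96.2 and 99.8. The control was thus the highest at ITGA6 and TGFBR2, and KO2 at MET, EGFR and MYC. Intestinal and epithelial markers had 2 of 24, KRT8 and GRHL2, and markers of other cell types 1 of 24, COL1A1. In the order given, the lists of this paragraph had a control region at 32, 18, 20, 17, 13 and 9 genes. Their median gene lengths were 57826, 52688, 18058, 36540, 22229 and 12361 bp. Over all protein-coding genes 3.84% had a shared site. For Wnt targets, intestinal markers and markers of other cell types the counts were small, and so were the numbers this share gives.

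In the remaining 3 lists the number of genes with a shared site was also small, and so was the number that the share over all genes (3.84%) gives for lists of this size. AP-1 and immediate early genes had a control region at 21 of 26 and a shared site at 1, EGR1, at 83.3, 10.4 and 19.9. SWI/SNF subunits had a control region at 20 of 26 (median length 52038 bp) and a shared site at 0. Translation machinery genes had a control region at 22 of 35 and a shared site at 0, and are short, with a median of 6841 bp. For gene ends alone, 8 of the 304 genes (2.63%) had a shared site, against 234 of all 19974 genes (1.17%).

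Peaks of Flag-tagged actin were then set against the shared sites. A Flag-actin peak of the control library overlapped 29 sites (2.22%, 1.49 to 3.17, against 3.38% of all merged BRG1 regions), one of KO1 35 (2.68%, 1.87 to 3.71, against 2.13%) and one of KO2 58 (4.44%, 3.39 to 5.70, against 3.18%). Any of the 3 lists had a peak at 95 sites (7.27%, 5.92 to 8.82, against 6.86%), and all 3 at 8 sites (0.613%, 0.265 to 1.20, against 0.38%). The share was below that of all BRG1 regions for the Flag-actin control, above it for KO2, and within the interval for the others. The higher Flag-actin KO2 share was not particular to shared sites. It was 5.91% at BRG1 regions of control and KO1, 6.01% at those of control and KO2 and 9.04% at those of both KO lists without the control. In the top decile of control regions it was 2.62% at shared sites and 2.58% at control-only regions. The lower Flag-actin control share was not particular to shared sites either. It was 2.41% at BRG1 regions of both KO lists without the control, 1.80% at KO1 only and 1.85% at KO2 only. At regions of control and KO1, control and KO2, and control only it was 3.88%, 4.83% and 3.88%. In the top decile it was 2.24% at shared sites (1.33 to 3.52) and 3.21% at control-only regions. The share depends on the removal of peaks that overlap IgG: it was 5.64% for the Flag-actin control where only the IgG list of the BRG1 arm was used and 62.7% with no removal. Of the 8, the site of highest rank lay 27301 bp from LOC124903857 on chromosome 1, with BRG1 percentiles of 87.2, 35.3 and 76.9, and it was followed by one 5402 bp from DBNL, which encodes a drebrin-like actin-binding protein, at 71.2, 5.51 and 72.0.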

How the data were processed

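The files were 8 peak lists, 1 per library, each with the position of a peak, its total signal and its maximum signal as the authors deposited them. The layout is that of SEACR, and the deposited names carry the word stringent with 0.01 for antibody and 0.005 for IgG libraries. Such a number keeps a top fraction of a library's signal blocks, so list length does not measure binding. Per the submitters' processing notes, the build was hg38, peak callers were SEACR and MACS2, and the other tools named were BWA, bedtools 2.30.0, Trim Galore 0.4.5, deepTools, FastQC 0.12.0 and SAMtools, with no settings. The scaling of the signal was not given in the sources, and read depth is unknown, so ranks within a list were used. Maximum signals below 200 steps were whole multiples of a fixed step within 0.05 steps for 100% of values.

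Overlaps, ranks and exact binomial intervals (95%) used scipy 1.17.1, pandas 2.3.3 and numpy 2.4.6 under Python 3.11.15. Overlap and merging code was checked on 19445 simulated intervals and regions and gave 0 differences from bedtools 2.31.1. No test was run, since each condition had 1 or 2 libraries. A region was linked to every protein-coding gene of the RefSeq table within 1 kb, or else to the nearest; promoter sequences were available for 15812 of 19974 genes and for none on chromosome 8. The named sites are the 12 of highest mean rank, the 6 with the largest difference each way, genes with most sites, the 5 widest, up to 5 list genes each, 10 promoters, sites with all Flag-actin lists and those nearest the overlap limit; CRIM1, YAP1, MYL9, RHOB, SRF and the group members of the 1 Mb windows were named after their values were seen. A few sites that the rule names are not reported here. The members and lists were chosen with earlier results of these data known. Alternatives were other IgG removal, overlap rules, thresholds, windows and ranks, and leaving out each KO library.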

Additional observations from a re-analysis of the deposited data

How the results depend on the processing

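Over all alternatives, 73 of 112 values stayed close to those reported and 39 moved. None of the 12 highest sites was lost from the set under the other IgG, overlap, length and library settings; their mean percentile among all peaks does not depend on most of these by construction. It moved at all 12 under the other 2 rank scales, to between 99.4 and 99.995 among peaks without IgG overlap and to between 37.1 and 60.3 by maximum signal. With no peaks dropped for IgG, 15505 regions were shared, 4.40% at gene ends and 62.7% with a peak of the Flag-actin control, with median widths of 50 bp in the control and 30 bp in KO, a KO percentile of 71.3, summits 0 bp apart, CCAAT in 57.1% of windows and 101 list genes. With only the IgG list of the BRG1 arm, the Flag-actin share was 5.64% and the summit distance 42.5 bp. With lists of equal length, 846 sites remained, with widths of 450 and 207.5 bp and a summit distance of 57.5 bp. In the upper part of each list (the stronger 50%) there were 733 sites, 12.96% at gene ends, a control width of 430 bp and CCAAT in 76.7%. Leaving out KO1 or KO2 gave 2382 to 4516 sites, 17.6% to 27.7% at gene ends, Flag-actin shares of 2.94% to 4.07%, control widths of 300 to 320 bp, KO widths of 160 to 180 bp, control percentiles of 66.9 to 72.1, KO percentiles of 31.9 to 38.4, CCAAT shares of 54.7% to 64.3% and 53 to 96 list genes. A 3 kb window put 20.1% at gene ends. Ranks among peaks without IgG overlap were 93.8 in the control and 81.4 in KO, and ranks by maximum signal 55.6 and 22.02. A Flag-actin control peak within 500 bp was found at 5.21%. With gene ends only, 8 list genes remained. Without sites up to 50 bp wide, a setting chosen after seeing the data, the summit distance was 52.5 bp. The cause of these shifts was not tested. No paired analysis was possible because there was 1 control library and no result comes from a test. Read depth is unknown, and the absence of a KO peak at a weak control region cannot be told apart from a shallower library.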
